A study of Mus musculus with 6 samples.

Results

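The genes that flank Ptprd on mouse chromosome 4 were followed in livers of C57BL/6J mice. Its product, protein tyrosine phosphatase receptor type D, is a membrane phosphatase best known for its part in synapse formation. Members were the protein-coding rows of the count table that lie within 10 Mb of either end of Ptprd, without Ptprd itself, Plin2 and Rps6. The rule used position and gene type, left those genes out by name, and found 28 genes among 25904 in the table. Of these, 24 had enough counts to be tested. No row of the table had a count of 0 in every library, so a gene without reads could not be a member.

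Polyadenylated liver RNA was sequenced in 3 wild-type samples (Ptprd+/+, here WT) and in 3 heterozygous samples (Ptprd+/-, called Het), all of the C57BL/6J strain. The labels name no further allele or treatment, and no source used here gives the kind of altered Ptprd allele, the age or the sex. Nothing in the labels says outright that the samples of a genotype came from separate animals, so p-values measure the spread between these samples. Total counts were 37924266 to 72954187 per library. All 6 hepatocyte markers were detected in every library, with summed levels of 125024 to 149951 CPM (counts scaled to a library of 1e+06) in WT and 150747 to 181721 CPM in Het. Het 2 and Het 3 stood apart in clock genes. A clock score was taken as the mean log2 CPM of 6 clock genes minus that of 3 clock activators. The 6 were Dbp, Tef, Per3, Nr1d1, Nr1d2 and Ciart, and the 3 were Arntl, Npas2 and Clock. This score was 0.82 to 2.03 in WT, 0.39 in Het 1, 4.59 in Het 2 and 4.47 in Het 3.

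Neighbouring genes share stretches of chromatin, and an altered allele is inherited together with the DNA that lies close to it. Genes next to an altered locus are therefore often read alongside it when a mutant is compared with its wild type. The liver expresses many of these neighbours, among them transcription regulators, centrosome proteins and enzymes of lipid handling.

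Ptprd (ENSMUSG00000028399, chromosome 4 at 75941238 to 78211961, mm10) spans 2.27 Mb and lies in a gene-poor stretch. GENCODE places 49 protein-coding genes in the window of 22.3 Mb, or 2.20 per Mb, against 9.75 per Mb on the rest of chromosome 4. The table held 72 rows of any kind in this window, of which 31 were protein-coding and 32 were processed pseudogenes. The GENCODE coordinates were the same as those of the table for all 28 members. On the centromeric side of Ptprd lie 9 members, of which 7 were tested, and on the telomeric side 19, of which 17 were tested. The nearest members are Dmac1, 0.663 Mb to the centromeric side, and Lurap1l, 2.70 Mb to the telomeric side. The members are long genes, with a median span of 105.9 kb over the 24 tested against 21.4 kb over all 14606 tested genes.

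Promoter sequence was available from RefSeq (GRCm38.p6, the build that mm10 denotes) for 22 of the 28 members. The 250 bases before the RefSeq start are printed for 4 of them, each 5' to 3' on the strand of the gene, with every CG pair in capitals. Dmac1 and Kdm4c are the members nearest to Ptprd on the centromeric side, Tle1 is the member whose Het libraries all lay above WT, and Rraga is the member measured with the smallest error. Their positions are chr4:75278293-75278542 for Dmac1 on the minus strand, chr4:74242247-74242496 for Kdm4c on the plus strand, chr4:72200894-72201143 for Tle1 on the minus strand and chr4:86575423-86575672 for Rraga on the plus strand.
Dmac1: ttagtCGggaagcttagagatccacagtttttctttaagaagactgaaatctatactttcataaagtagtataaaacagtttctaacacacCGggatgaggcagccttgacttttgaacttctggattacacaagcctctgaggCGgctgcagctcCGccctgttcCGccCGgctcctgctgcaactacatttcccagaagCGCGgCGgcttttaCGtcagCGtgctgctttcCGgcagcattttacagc
Kdm4c: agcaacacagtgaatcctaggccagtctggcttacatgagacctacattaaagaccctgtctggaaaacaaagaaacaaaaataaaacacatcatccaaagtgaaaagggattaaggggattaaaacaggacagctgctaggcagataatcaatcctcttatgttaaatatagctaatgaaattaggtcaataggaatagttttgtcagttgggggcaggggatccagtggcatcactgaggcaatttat
Tle1: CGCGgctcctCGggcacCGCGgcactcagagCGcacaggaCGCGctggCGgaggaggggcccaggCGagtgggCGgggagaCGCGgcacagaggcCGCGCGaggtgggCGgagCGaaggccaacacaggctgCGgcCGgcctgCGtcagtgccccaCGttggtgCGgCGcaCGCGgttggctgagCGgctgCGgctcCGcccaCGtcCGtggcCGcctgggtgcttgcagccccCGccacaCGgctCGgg
Rraga: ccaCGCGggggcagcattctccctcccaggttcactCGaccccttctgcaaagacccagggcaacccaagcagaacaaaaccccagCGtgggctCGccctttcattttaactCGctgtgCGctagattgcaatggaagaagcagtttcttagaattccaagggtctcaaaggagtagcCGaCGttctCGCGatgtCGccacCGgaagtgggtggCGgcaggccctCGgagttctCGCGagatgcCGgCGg
These windows hold 12 CG pairs in Dmac1, 0 in Kdm4c, 35 in Tle1 and 19 in Rraga. Kdm4c has another RefSeq start further into the gene, whose 250 bases hold 19 CG pairs. Over the whole window of 300 bases, which runs from 250 before to 50 after a start, the tested members had a median of 24 CG pairs in 23 windows of 19 genes. All tested protein-coding genes had a median of 20, and all windows of the RefSeq file 7. At least 10 CG pairs were present in 18 of the 23 windows (78.3%), in 75.2% of those of all tested protein-coding genes and in 43.5% of all windows. Of the untested members, Rasef had 38 CG pairs, Sh3gl2 34 and Bnc2 0.

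The level of Ptprd was checked first, as the gene that the genotype labels name. Levels were 128, 127 and 132 CPM for the WT livers 1 to 3, and 54.1, 78.1 and 63.4 CPM for the Het livers 1 to 3. No Het library reached the lowest WT library, with a log2 fold change (Het over WT) of -0.99 (SE 0.14), a 95% interval of -1.30 to -0.67 and an adjusted p of 0.298 by edgeR's quasi-likelihood test. DESeq2 gave it an adjusted p of 2.01e-06, and edgeR with no filter on low counts one of 5.88e-04.

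By edgeR, 0 of the 24 tested members passed an adjusted p of 0.05 (0% of all 14606 tested genes did), and the smallest adjusted p of a member was 0.685. DESeq2 also called 0 members (0.452% of all tested genes), and limma-voom 0. At an unadjusted p under 0.05 stood 2 members, Adamtsl1 and Ccdc171 (8.33%), against 7.15% of all tested genes. Both were lower in Het, as were 3.77% of all tested genes at that p. Genotypes did not overlap in 2 members, Tle1 and Adamtsl1 (8.33%), against 13.9% of all tested genes. With both directions counted together, the members' shares were thus near or below those over all genes. The share lower in Het at that p (8.33%) was above the 3.77% of all tested genes. Fold changes ran from -0.90 for Adamtsl1 to 0.36 for Mpdz, with 13 members within 0.2 of no difference on the log2 scale. The median size of the log2 fold change was 0.17 over the members and 0.15 over all tested genes. In Het 9 members were higher and 15 lower (62.5%, against 50.8% of all tested genes lower).

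Each interval covers 1 member on its own, from 3 libraries per genotype, and gives the differences that its values allow. In 22 of the 24 tested members the 95% interval lay wholly above a log2 fold change of -1, which is a halving, while 88.4% of all tested genes met the same condition. The other two were Adamtsl1 and Tlr4. In 12 members the interval lay within 1.5-fold of no difference on either side. The intervals of the other members reach past 1.5-fold on at least 1 side. The share of all tested genes within 1.5-fold was not counted. Counts of all 24 tested members, summed over the 6 libraries, ran from 149 for Frem1 to 20122 for Nfib. Leaving out single libraries moved the log2 fold change by over 1.5 times in 22 of the 24, of which 8 turned sign. The other two were Adamtsl1 and Ccdc171. How many of all tested genes move as far was not counted.

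**Figure D1:**
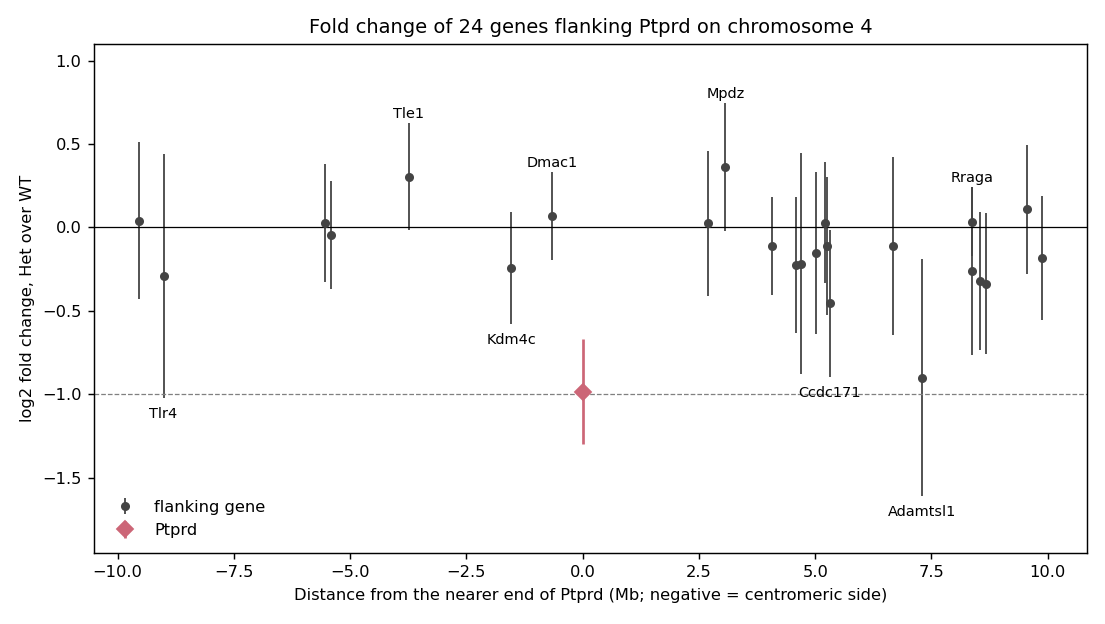
The log2 fold change (Het over WT, vertical axis) of each tested gene is plotted against its distance in Mb from the nearer end of Ptprd, with negative distances on the centromeric side. Points are edgeR estimates and bars their 95% intervals, the dashed line marks a halving, and Ptprd at -0.99 lies below 24 flanking genes of which 22 have intervals wholly above the dashed line.

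Fold changes were set against the distance from Ptprd. The median log2 fold change was -0.09 over the 2 tested members within 2.5 Mb, -0.04 over the 6 members from 2.5 to 5 Mb and -0.13 over the 16 members from 5 to 10 Mb. Across the 24 genes, which are not independent replicates, distance had a Spearman's rho of -0.25 with the signed log2 fold change and of 0.06 with its size. The median from 2.5 to 5 Mb turned to 0.030 without WT 3 and to 0.023 when only genes of at least 1 CPM in 3 libraries were tested. By side, the median was 0.03 over the 7 centromeric and -0.15 over the 17 telomeric members, and the difference between the sides was not tested.

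Chromatin and transcription regulators were the largest group, with 6 tested members of which 3 were higher and 3 lower, and a median log2 fold change of -0.04. Tle1, a Groucho-family corepressor (ENSMUSG00000008305, chromosome 4 at 72117142 to 72200919), had 37.0, 49.4 and 53.8 CPM in the WT livers, against 57.4, 58.2 and 57.4 CPM for Het. All Het libraries lay above the highest WT library, and the Het libraries were close to each other while WT 1 was low. Its log2 fold change was 0.30 (SE 0.14, adjusted p 0.698 by edgeR), and 0.16 without WT 1. A noncoding transcript, C630043F03Rik, starts 429 bases from the start of Tle1 and runs away from it on the opposite strand. The CG-rich Tle1 promoter printed above reaches into the space between them. The noncoding transcript was looked at after the Tle1 values were seen. C630043F03Rik had 2.65, 3.07 and 3.43 CPM in the WT livers, against 3.48, 4.41 and 3.78 CPM for Het. Again the genotypes did not overlap, though Het 1 lay just above WT 3 (log2 fold change 0.36, SE 0.18, adjusted p 0.712 by edgeR).

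Kdm4c, a histone lysine demethylase (ENSMUSG00000028397, 74242497 to 74405860), is the second nearest member on the centromeric side. It had 9.51, 9.12 and 10.1 CPM in the WT livers, against 6.91, 9.41 and 7.93 CPM for Het. Het 1 and Het 3 lay below WT while Het 2 lay within it, and the log2 fold change was -0.24 (SE 0.15, adjusted p 0.740 by edgeR). Nfib, a nuclear factor I transcription factor (ENSMUSG00000008575, 82290173 to 82705750), had the most counts of all members. Its levels were 68.9, 77.6 and 66.0 CPM in the WT livers, against 55.2, 73.7 and 67.6 CPM for Het, a log2 fold change of -0.11 (SE 0.13). Het 1 was the lowest, and the other Het libraries lay within WT. An antisense gene, Gm11266, overlaps Nfib, and no source used here gives the strand setting of the counting, so reads of the pair may not be fully told apart.

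The remaining regulators were close to no difference. Psip1, a chromatin-tethering coactivator, had 20.6 ± 3.14 CPM in the WT livers against 19.0 ± 4.32 CPM for Het (SD, n = 3), and Snapc3, a subunit of the complex that activates small nuclear RNA genes, had 4.42 ± 0.349 and 4.51 ± 0.548 CPM. Psip1 and Snapc3 overlap on opposite strands, and whether reads were shared between them was not tested either. Mllt3, a chromatin reader of the super elongation complex, had 3.73 ± 0.382 CPM in the WT livers against 4.02 ± 0.478 CPM for Het.

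**Figure D2:**
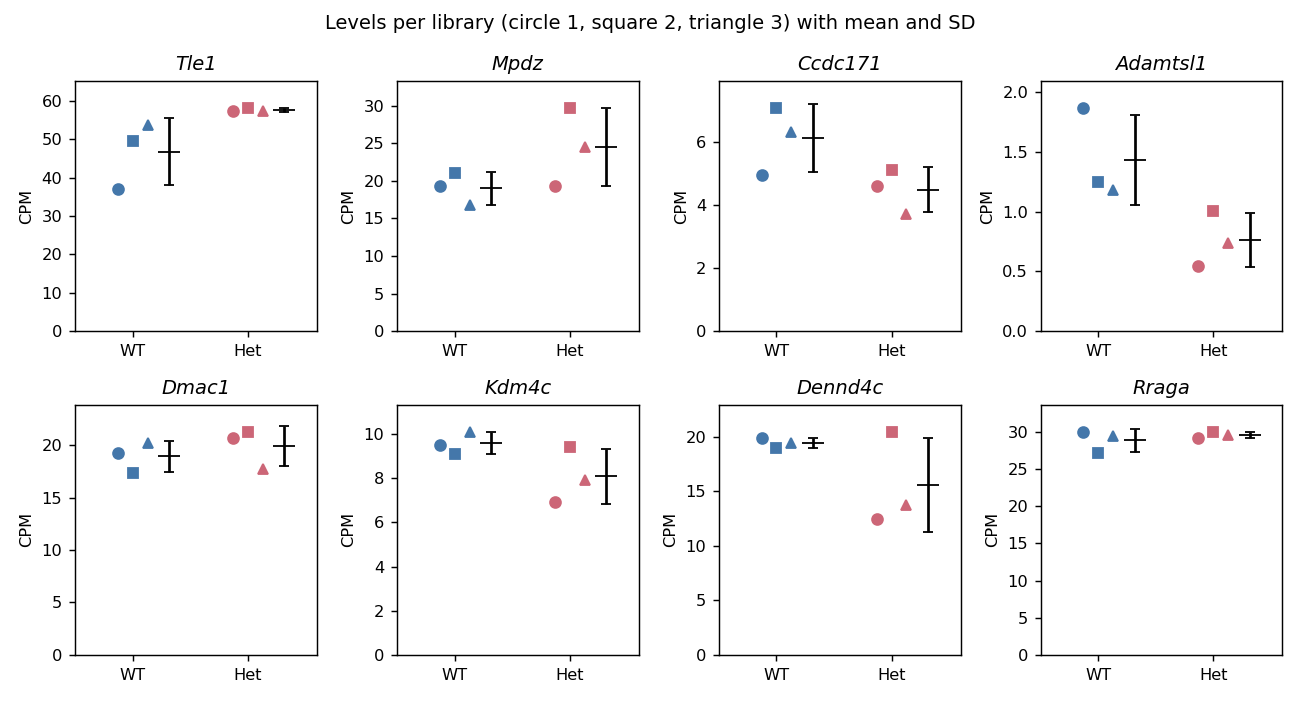
CPM of 8 flanking genes (vertical axes, each from 0) in the WT libraries (blue) and Het libraries (red), with circle, square and triangle for libraries 1, 2 and 3 and the black bar for mean and SD. Tle1 is higher and Adamtsl1 lower in every Het library, while Rraga lies between 27.1 and 30.1 CPM in all 6.

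Enzymes and GTPases of lipid, lysosomal and mitochondrial handling gave 5 tested members, 2 higher and 3 lower, with a median log2 fold change of -0.15. Dmac1, an assembly factor of mitochondrial complex I (ENSMUSG00000028398, 75277354 to 75278305), lies closest to Ptprd of all members. It had 19.3, 17.3 and 20.2 CPM in the WT livers, against 20.7, 21.3 and 17.7 CPM for Het. The genotypes overlapped, with a log2 fold change of 0.07 (SE 0.11) and an interval of -0.19 to 0.33. Ttc39b, which promotes the turnover of the sterol sensor LXR (ENSMUSG00000038172, 83220300 to 83324255), had the members' highest level per kb of median transcript length. Its levels were 32.2, 42.9 and 31.8 CPM in the WT livers, against 23.8, 42.0 and 30.5 CPM for Het, so the libraries numbered 2 were high in either genotype and Het 1 was low (log2 fold change -0.15, SE 0.21).

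Rraga, the Rag GTPase that carries the amino acid signal to mTORC1 on lysosomes (ENSMUSG00000070934, 86575668 to 86577285), was the steadiest member. It had 30.1, 27.1 and 29.5 CPM in the WT livers, against 29.2, 30.0 and 29.5 CPM for Het, a log2 fold change of 0.03 (SE 0.09) with an interval of -0.17 to 0.24. Acer2, a Golgi ceramidase, had 16.1 ± 4.13 CPM in the WT livers against 12.7 ± 1.29 CPM for Het (SD, n = 3). Its log2 fold change was -0.34 (SE 0.18), and -0.11 without WT 1. Zdhhc21, a protein acyltransferase, had 9.99 ± 1.29 and 8.54 ± 1.72 CPM. The values of Rraga by library are shown because its error was the smallest, and were chosen after they were seen.

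Junction scaffolds and vesicle traffic gave 3 tested members, 2 higher and 1 lower. Mpdz, a multi-PDZ scaffold of tight junctions (ENSMUSG00000028402, 81278500 to 81442815), had 19.3, 21.1 and 16.7 CPM in the WT livers, against 19.3, 29.7 and 24.5 CPM for Het. Het 2 and Het 3 lay above every WT library and Het 1 within them, which is also how the clock score divided the Het libraries. The log2 fold change was 0.36 (SE 0.17, adjusted p 0.698 by edgeR), 0.12 after adjusting for the clock score and 0.02 when Het 2 and Het 3 were dropped. Het 2 and Het 3 held both the high Mpdz values and the high clock scores, and dropping them removes the difference whatever its source. Neither fit can therefore tell the clock difference from genotype. The part of the clock difference in the Mpdz values was not tested. Lurap1l (ENSMUSG00000048706, 80910646 to 80955628), the nearest telomeric member, had 34.6, 24.8 and 40.7 CPM in the WT livers, against 38.6, 28.3 and 35.0 CPM for Het, with overlap and a log2 fold change of 0.02 (SE 0.19). Dennd4c, an activator of the traffic GTPase RAB10, had 19.9, 19.0 and 19.5 CPM in the WT livers, against 12.5, 20.5 and 13.7 CPM for Het, values that were chosen after they were seen. Het 1 and Het 3 lay below a narrow WT range and Het 2 above it (log2 fold change -0.32, SE 0.18, and -0.19 without Het 1).

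Matrix and membrane proteins gave 3 tested members, all 3 with a negative log2 fold change. Adamtsl1, a secreted relative of the ADAMTS proteases that lacks the protease domain (ENSMUSG00000066113, 85514172 to 86428385), had 1.87, 1.25 and 1.18 CPM in the WT livers, against 0.549, 1.00 and 0.738 CPM for Het. Every Het value was lower than every WT value, and a library held 20 to 86 counts. The log2 fold change was -0.90 (SE 0.31), or 1.87-fold lower, with an unadjusted p of 0.0189, an edgeR adjusted p of 0.685 and a DESeq2 adjusted p of 0.443. Without WT 1 it was -0.66. Adamtsl1 overlaps Sh3gl2 over 125024 bases on the same strand, and whether reads were shared or lost there was not tested. In whole liver, fewer cells of a type and less RNA per cell cannot be told apart. Of 7 stellate cell and fibroblast markers, which were all detected in every library, 6 were lower, with summed levels of 287 to 337 CPM in WT and 261 to 289 CPM in Het. Their median log2 fold change was -0.08, and 0 had an unadjusted p under 0.05 by edgeR. Also lower were 7 of 8 Kupffer cell and macrophage, 5 of 7 sinusoidal endothelial and 5 of 6 leukocyte markers. Of the cholangiocyte markers 2 of 5 were lower, and of the hepatocyte markers 1 of 6. The part of the stellate cell and fibroblast markers in the Adamtsl1 values was not tested. Megf9, a membrane protein with EGF-like domains, had 24.8 ± 4.25 and 24.1 ± 2.20 CPM, and Frem1, a basement membrane protein, 0.550 ± 0.0887 and 0.466 ± 0.0727 CPM.

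Centrosome and spindle proteins, counted together with Focad, gave 4 tested members, 1 higher and 3 lower, with a median log2 fold change of -0.15. Cdk5rap2, which anchors gamma-tubulin at the centrosome, had 6.66 ± 0.903 CPM in the WT livers against 6.79 ± 0.665 CPM for Het (SD, n = 3). Haus6, a subunit of the augmin complex, had 5.58 ± 1.34 and 4.66 ± 0.924 CPM. Cntln, which encodes the centriole protein centlein, had 1.53 ± 0.112 and 1.41 ± 0.297 CPM. Focad, which encodes focadhesin, had 15.6 ± 1.37 and 13.8 ± 2.74 CPM. It overlaps the gene Hacd4 on the opposite strand, which had 742 counts in all, and whether reads were shared was not tested. Log2 fold changes of the group ran from -0.26 for Haus6 to 0.03 for Cdk5rap2. Haus6 had -0.040 without WT 2 and -0.43 without Het 2.

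Tlr4, the receptor for bacterial lipopolysaccharide, had 2.43, 1.25 and 2.11 CPM in the WT livers, against 1.67, 1.09 and 1.95 CPM for Het, values chosen after they were seen. The genotypes overlapped, and within each genotype library 2 was the lowest (log2 fold change -0.29, SE 0.32). This value was -0.084 without WT 1, -0.079 without Het 2 and -0.52 without WT 2. The summed level of 8 Kupffer cell and macrophage markers, all detected in every library, was likewise lowest in library 2 of each genotype, at 653, 405 and 526 CPM in the WT livers, against 549, 298 and 501 CPM for Het. Its part in the Tlr4 values was not tested. Astn2, a membrane protein of migrating neurons, had 1.85 ± 0.252 CPM in the WT livers against 1.89 ± 0.203 CPM for Het. The gene Trim32 lies within Astn2 on the other strand and had 2691 counts in all against 553 for Astn2, and whether reads were shared between them was not tested. Ccdc171 (ENSMUSG00000052407, 83525545 to 83864670), in no group, had 4.95, 7.07 and 6.32 CPM in the WT livers, against 4.61, 5.11 and 3.70 CPM for Het. Het 2 lay just above WT 1, so the genotypes overlapped by a narrow margin. Its log2 fold change was -0.45 (SE 0.19), with an unadjusted p of 0.0446 and an adjusted p of 0.694 by edgeR.

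Another 4 members were at or near the limit of detection and were not tested. Rasef had 26 counts over the 6 libraries, Bnc2, a zinc finger protein gene, 16, Aldoart1, a retrocopy related to aldolase A, 13, and Sh3gl2, which encodes an endophilin, 12. Reads of Aldoart1 may be shared with its parent gene, and those of Sh3gl2 with Adamtsl1, which it overlaps. Per kb of median transcript length, the 24 tested members had a median level of 4.8 CPM per kb, against 8.20 CPM per kb over 13059 tested protein-coding genes. Ttc39b at 40.2 CPM per kb and Dmac1 at 26.2 CPM per kb were the highest and Frem1 at 0.136 CPM per kb the lowest. This order depends on the median transcript length, which was 0.842 kb for Ttc39b and 4.82 kb for Astn2. By CPM alone Nfib was the highest member.

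The members were also compared library by library. The level of a gene set was taken as the median over its genes of log2 CPM (with 0.5 added) after subtracting that gene's mean across libraries. The 24 members stood at 0.05 in WT 1, 0.03 in WT 2 and 0.05 in WT 3. Their level was -0.15 in Het 1, 0.10 in Het 2 and -0.0049 in Het 3. Het 1 and Het 3 thus lay below every WT library, Het 3 by less, and Het 2 lay above them. Het 1 was the lowest library in 12 of the 24 members and the highest in 0, while over all tested genes it was the lowest in 24.3% and the highest in 22.8%. On the telomeric side alone Het 1 stood at -0.27 and was the lowest in 11 of 17 members. On the centromeric side it stood at -0.017 and was the lowest in 1 of 7, with WT 2 at -0.16 and Het 3 at -0.13 below it. The members' median log2 fold change of -0.11, against -0.0039 over all tested genes and 0.01 over 863 tested genes on the rest of chromosome 4, was -0.03 when Het 1 was left out.

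Het 1 was also the lowest library of long genes across the genome. Over the 1761 tested genes of the whole genome that span at least 100 kb, a limit chosen after the values were seen, the level was 0.07, 0.05 and 0.02 in WT and -0.14, 0.03 and -0.01 in Het. Het 1 was the lowest library in 41.9% of these genes, against 21.8% of the 12845 shorter genes. Their median log2 fold change was -0.10, and that of the shorter genes 0.0082. Of the members, 15 span at least 100 kb, with a level of -0.16 in Het 1 and a median log2 fold change of -0.15. The 9 shorter members had a level of -0.15 in Het 1 and a median of 0.02, while all tested genes under 100 kb stood at 0.017 in Het 1. Het 1 was the lowest library in 5 of the 9 shorter members (55.6%) and in 7 of the 15 longer ones (46.7%). The summed hepatocyte markers, of which the albumin gene Alb made up 144174 of 181721 CPM in Het 1, were highest in that library. Alb, Apoa1 and Serpina1a peaked there, while Ttr and Cyp2e1 peaked in Het 3 and Cps1 in WT 1. The part of gene span or of these markers in the members' values was not tested.

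**Figure D3:**
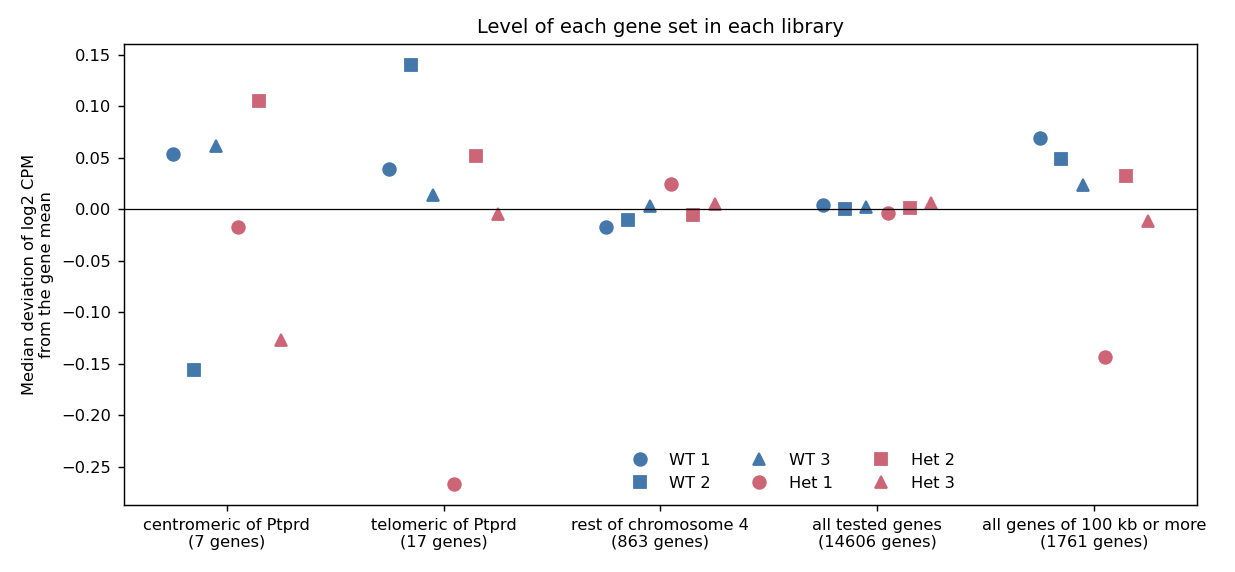
The level of each gene set (vertical axis, median deviation of log2 CPM from the gene mean) in the 3 WT libraries (blue) and 3 Het libraries (red), with circle, square and triangle for libraries 1, 2 and 3. Het 1 lies at -0.27 for the telomeric members and at -0.14 for all genes of 100 kb or more, and close to 0 for all tested genes.

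**Figure D4:**
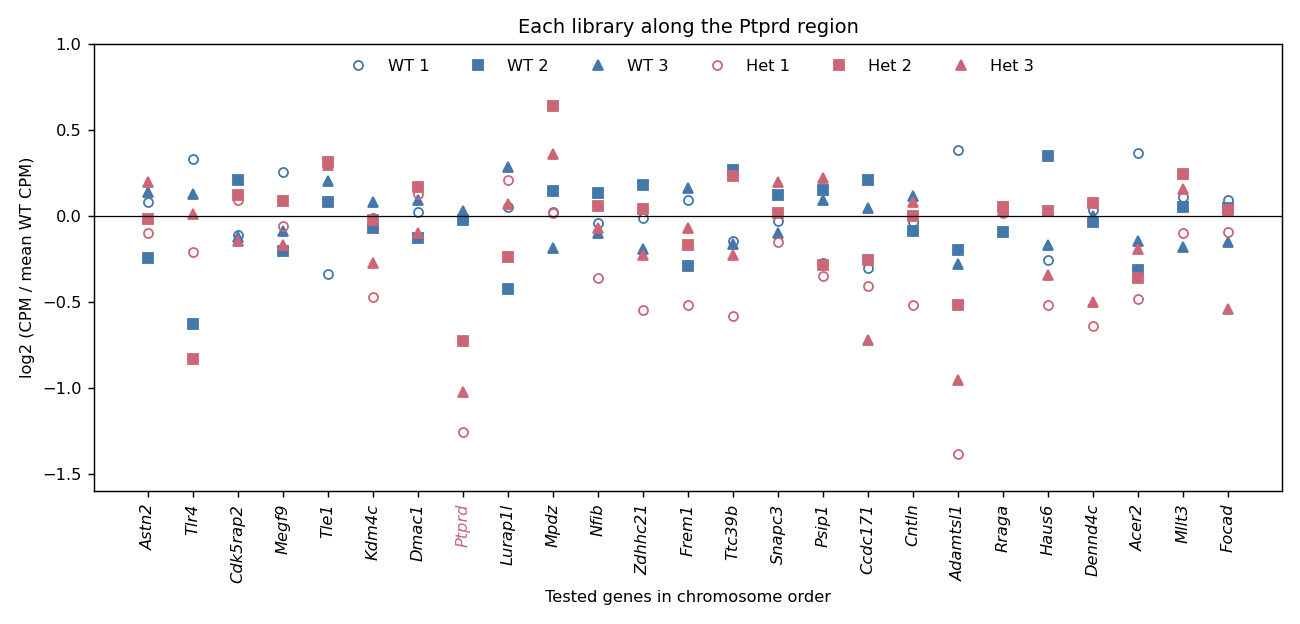
Each tested gene in chromosome order (horizontal axis) with its level in each library as log2 of CPM over the mean WT CPM (vertical axis), WT in blue and Het in red. At Ptprd all 3 Het libraries drop below all 3 WT libraries, while at most flanking genes the colours mix and Het 1 (open red circle) is often the lowest.

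The partners and relatives of the members, most of them on other chromosomes, were counted for comparison in 14 lists. Of 107 listed genes 100 were tested, and 46 were higher and 54 lower in Het. By edgeR 0 passed the adjusted threshold, and 9 had an unadjusted p under 0.05 (9%, against 7.15% of all tested genes). List medians ran from -0.30 to 0.14 on the log2 scale. The lowest was that of the ceramidases and sphingosine enzymes related to Acer2, with 4 of 6 tested genes lower. Among them Sgpl1, sphingosine phosphate lyase, had a log2 fold change of -0.34 (SE 0.12, adjusted p 0.685 by edgeR), and the lysosomal ceramidase gene Asah1 of -0.28 (SE 0.10). The third at an unadjusted p under 0.05, Asah2, had -0.34 and was chosen after its values were seen.

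Dennd4a, a relative of Dennd4c, had 35.6, 35.1 and 36.6 CPM in the WT livers, against 23.9, 32.2 and 25.5 CPM for Het. Like Dennd4c it was lowest in Het 1 and Het 3, and its log2 fold change was -0.40 (SE 0.13, adjusted p 0.685 by edgeR), while Rab10 had -0.10. In the TLR4 pathway 5 of 10 tested genes were higher and 5 lower. Ticam1, the adaptor for interferon induction, had 15.2, 12.5 and 14.6 CPM in the WT livers, against 19.3, 18.8 and 20.5 CPM for Het, with all Het libraries above WT (log2 fold change 0.47, SE 0.11, adjusted p 0.60 by edgeR). Cd14, the lipopolysaccharide co-receptor, had -0.57.

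In the remaining lists 0 genes passed the adjusted threshold by edgeR. Haus7, Cldn3, Tubg1 and Zdhhc14 had an unadjusted p under 0.05 by edgeR and no overlap between genotypes, with Haus7 lower and the others higher in Het. Of the 7 tested augmin subunits other than Haus6, 5 were lower, with Haus7 at a log2 fold change of -0.33 and Haus2 at -0.14. Of the 7 tested Rag and Ragulator genes 6 were higher, by at most 0.17 for Lamtor4, with Lamtor2 at 0.15. Nfix and Nfic, relatives of Nfib, had 0.28 and 0.09, and all 3 of the tested relatives were higher. Kdm4a and Kdm4b had -0.08 and 0.0072, and the SNAPc subunits Snapc1 and Snapc2 had -0.23 and -0.04.

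Of the Tle1 relatives, Tle3 had a log2 fold change of -0.40 and Tle2 of 0.29. In the super elongation complex 5 of 10 tested genes were higher, with Ell at 0.21 and Mllt1 at 0.15. Among LXR targets 6 of 8 were lower, with Lpcat3, a phospholipid acyltransferase gene, at -0.25 and the receptor gene Nr1h2 at 0.18. Of the junction partners of Mpdz 9 of 11 were lower, including Lin7c at -0.29, while the claudin gene Cldn3 had 0.35. The centrosome partners had Tubg1, a gamma-tubulin gene, at 0.31 and Mzt1 at -0.33. Of the 15 tested acyltransferases related to Zdhhc21 10 were higher, with Zdhhc14 at 0.51 and Zdhhc20 at -0.39.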

How the data were processed

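Raw read counts per Ensembl gene, deposited by the authors with 1 column per library, were used as deposited. Per the submitters' processing notes, the genome build was mm10 and the tools were STAR 2.5.3a, HTSeq 0.6.1p1, DESeq2 1.16.1, cutadapt 1.10 and bcl2fastq 2.17.1.14. No source used here gives the annotation release, how strand was set or how multi-mapping reads were counted. The 12 normalized columns were not used because decimal marks in them had been altered, and the authors' deposited comparison table was not used. The median transcript length of each gene is the authors' own column, per the file headers.

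Low-count genes were dropped by filterByExpr, which left 14606 of 25904 genes, holding 99.955% of all counts. CPM values are scaled to the library size after trimmed mean of M values (TMM) scaling. Genotypes were compared with the quasi-likelihood test of edgeR (version 4.0.16, R 4.3.3, two-sided, genotype as the only term), adjusted by Benjamini-Hochberg over all tested genes. The biological coefficient of variation was 18.5%. The standard error and 95% interval of a fold change come from the quasi-likelihood F statistic. No 2 libraries agreed within sampling noise.

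The members, the lists and the alternatives were chosen with earlier results of these data known. Values in every library are given for members at an unadjusted p under 0.05, members without overlap between the genotypes, the 3 tested members nearest to Ptprd on each side and the 4 with the most counts. Of each partner list the 2 genes with the smallest unadjusted p are named. Other genes shown by library were picked with their values in view. The tests were tried on simulated data with 14606 genes. Of genes changed 2-fold edgeR called 50% and DESeq2 65%, and of genes changed 1.5-fold 7% and 27%. Of the unchanged genes edgeR called 7 and DESeq2 24. The simulated counts varied independently from gene to gene, without differences that many genes share, such as that in clock genes. The shares called may therefore not hold for the real libraries. Gene strands and overlaps were read from GENCODE M21 (GRCm38), and promoter sequences from RefSeq (GRCm38.p6). Alternatives were DESeq2 1.42.0, limma-voom (limma 3.58.1), other scalings and filters, a replicate block, a clock score as a covariate, libraries left out, a window of 5 Mb and all biotypes of the window.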

Additional observations from a re-analysis of the deposited data

How the results depend on the processing

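The count of members past the adjusted threshold was 0 under every alternative run, in which edgeR called 73 genes overall without a filter, 1 without Het 2 and DESeq2 66. At an unadjusted p under 0.05 stood 4 members with no filter (14.3%, against 5.94% of all genes tested so) and 4 with the replicate block (16.7% against 7.55%). After adjusting for the clock score there were 6 (25.0% against 14.4%), and within 5 Mb 0 of 8 (against 7.15% of all tested genes). With single libraries left out there were 0 to 4, the latter without Het 2 (16.7% against 9.60%). Genotypes did not overlap in 1 of 8 members within 5 Mb (12.5%, against 13.9% of all tested genes). When Het 2 and Het 3 were both dropped, which leaves a lone Het library that is assumed to vary like the others, they did not overlap in 15 of 24 (62.5%, against 63.0% of all tested genes). With single libraries left out they did not overlap in 3 to 8, the former without WT 1 (12.5% against 21.9%) or WT 3 (12.5% against 25.2%) and the latter without Het 2 (33.3% against 27.7%). The members' median log2 fold change was -0.21 after adjusting for the clock score and -0.27 when Het 2 and Het 3 were both dropped, and -0.14 to -0.03 with single libraries left out. Within 2.5 Mb the median was -0.17 to -0.039 with single libraries left out. From 2.5 to 5 Mb it was -0.17 without both Het 2 and Het 3 and -0.077 to 0.030 with single libraries left out. From 5 to 10 Mb it was -0.27 in that setting and -0.17 to -0.028 with single libraries left out. The cause of these shifts was not tested.

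Of the 24 members and 28 named partners, some genes near no difference changed sign. After adjusting for the clock score Astn2 had -0.0040, Snapc3 -0.10, Mllt3 -0.037, Nfic -0.0055 and Snapc2 0.043. When Het 2 and Het 3 were both dropped Astn2 had -0.092, Snapc3 -0.15, Mllt3 -0.095, Nfic -0.062, Kdm4a 0.022 and Snapc2 0.11. With single libraries left out Astn2 ran from -0.063 to 0.11, Cdk5rap2 from -0.031 to 0.15, Megf9 from -0.13 to 0.10, Lurap1l from -0.14 to 0.19, Ttc39b from -0.39 to 0.015, Snapc3 from -0.066 to 0.10, Cntln from -0.23 to 0.038, Rraga from -0.0037 to 0.063, Kdm4b from -0.061 to 0.12 and Snapc2 from -0.12 to 0.056. Ptprd kept its direction throughout, and passed the adjusted threshold with DESeq2 (2.01e-06) and in edgeR with no filter (5.88e-04), but in none of the other edgeR fits or limma-voom.

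WT and Het samples share replicate numbers, but same-numbered samples correlated at -0.08, 0.16 and 0.19 in their deviations from the group means, so the numbers were not taken as pairs. In edgeR with the replicate number as a block the members' median was -0.13 and 0 members were called. Overlap of genotypes has no counterpart in DESeq2, limma-voom or the fits with added terms, so those gave no such count. Counts of under 100 per library for Astn2, Tlr4, Cntln, Frem1 and Adamtsl1 in most libraries limit what can be seen there.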
